A study of Saccharomyces cerevisiae with 6 samples.

Results

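The genes described are GCN4 and genes of amino acid synthesis outside the lysine and sulfur pathways in budding yeast, 50 in all. They came from a given list and matched by symbol to probe sets that read a single gene, with the brightest probe set kept where a gene had several. All 50 were measured, among 5656 genes. Each lay at or above percentile 59.5 of the mean levels of all probe sets, so none was among the dim probe sets. The data are deposited log2 levels from 6 one-colour arrays, 2 in each of 3 groups, made from whole-cell total RNA of yeast grown in YPD, a rich medium, without treatment. The groups are the wild type (WT) and M1 and M8, mutants of TRA1 that are defective in the interaction with the activator Gal4. The residues changed in each mutant, the strain background and whether the duplicates were separate cultures are not stated in the labels. The p-values therefore cover the spread between the arrays given, and that spread may be technical alone. In bulk RNA of this kind a change in the cells sampled and a change in RNA per cell cannot be told apart.

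Gcn4 is a basic leucine zipper activator of most amino acid synthesis genes in yeast. When amino acids run short, the kinase Gcn2 slows general translation, which favours translation of the GCN4 message through its short upstream open reading frames, so the level of Gcn4 protein is set largely after transcription. Acidic activators such as Gcn4 and Gal4 recruit the SAGA coactivator, whose subunit Tra1 they contact. In rich medium amino acids are supplied and the Gcn4 response is held low. The comparisons ask how this gene set stood in Tra1 mutants that were defined by their contact with Gal4.

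The duplicates agreed unequally. Over the 50 genes the SD of the log2 difference between duplicates was 0.167 in WT, 0.238 in M1 and 0.128 in M8, against 0.198, 0.349 and 0.142 over all genes. M1 replicate 2 stood apart, with an SD over all genes of 0.303 around the mean of the remaining arrays, against 0.139 to 0.194 for the others. The M1 duplicates also disagreed on these genes as a set. In M1 replicate 1, 43 of the 50 lay above the mean of the other 5 arrays, and in M1 replicate 2, 21 did. The 7 MATa-specific genes, markers of one mating type, had a mean log2 level of 9.52 to 9.56 on the WT arrays, 9.14 to 9.29 on the M1 arrays and 9.36 on both M8 arrays. The median difference of the 7 from WT was -0.40 in M1, and in M8 it was -0.011, where MFA1 differed by -0.59, AGA2 by -0.52 and MFA2 by -0.22 and STE2, STE6, BAR1 and ASG7 lay between -0.011 and 0.031. The 4 MATalpha-specific genes had a mean log2 level of 5.57 to 5.82 over all 6 arrays. Of these SAG1 lay at percentile 68.3, MF(ALPHA)1 at 45.6, MF(ALPHA)2 at 27.6 and STE3 at 24.4, and the 10 meiosis genes had a median percentile of 13.7. The part of the MATa shift in the results below was not tested.

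The median of the 50 genes lay slightly above WT in both mutants, by amounts near the spread between duplicates, and no gene passed the test. In M1 their median difference from WT was 0.084, against 0.012 over all genes, and 35 of 50 lay above 0, against 52.7% of all genes. In M8 the median was 0.092, against 0.029 over all genes, and 39 of 50 lay above 0, against 57% of all genes. The SD between duplicates of the 50 genes' median per array was 0.0619. M1 replicate 2 had a median of -0.061 relative to the mean of the other arrays, between the -0.090 of WT replicate 1 and the -0.053 of WT replicate 2. All differences lay between -0.21 and 0.46 in M1 and between -0.27 and 0.40 in M8, so none reached 0.5 on the log2 scale. Fitted with limma over all 5656 genes with Benjamini-Hochberg correction, 0 of 50 passed an adjusted p under 0.05 in M1 or in M8, as 0 of 5656 genes did (0%). Before adjustment, 6 of 50 had p under 0.05 on the higher side in M1 and 0 on the lower, where 5.11% of all genes were higher and 3.47% lower. In M8, 2 of 50 were higher and 0 lower, where 4.74% of all genes were higher and 2.32% lower.

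**Figure D1:**
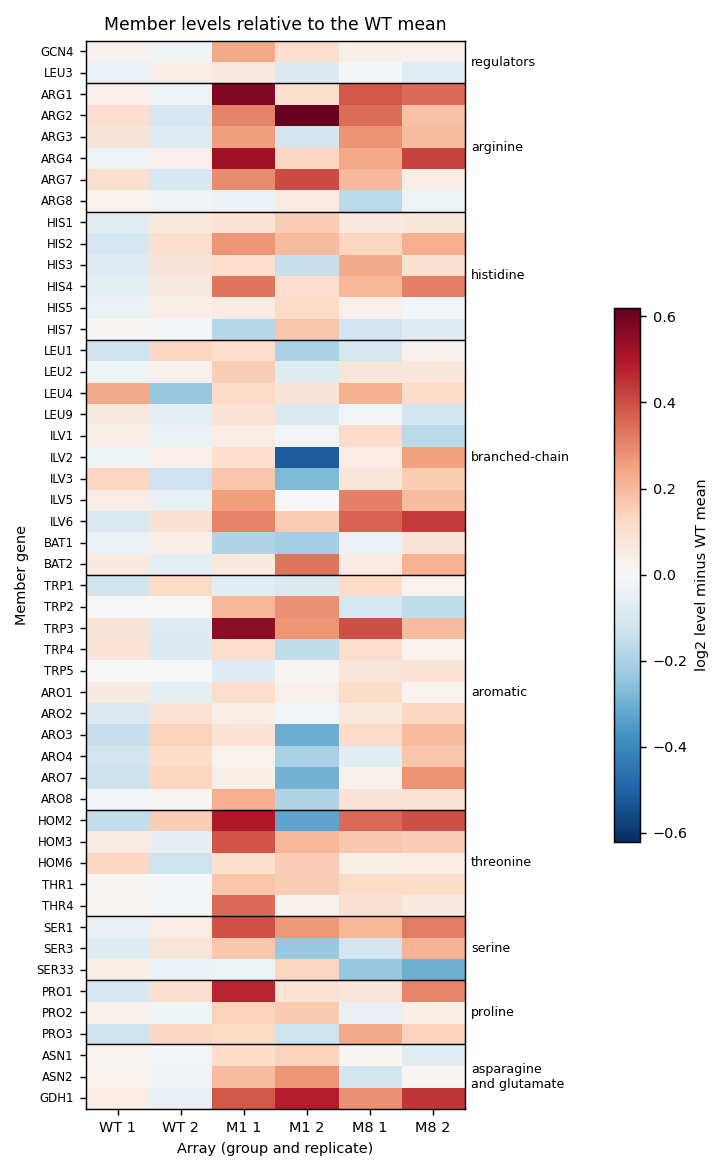
log2 level of each of the 50 genes (rows, grouped by pathway) on each of the 6 arrays (columns), shown as the difference from the mean of the 2 WT arrays. Red is higher and blue lower than the WT mean; GDH1 is red on all 4 mutant arrays, while ILV2 and HOM2 are blue on M1 replicate 2 and red or pale red on the other mutant arrays.

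Array by array, the shift was uneven. M1 replicate 1 had 35 of the 50 genes above both WT arrays, where 45.6% of all genes did so, and M1 replicate 2 had 26, where 38.8% did. M1 replicate 2 also had 16 of the 50 below both WT arrays, where 41.9% of all genes did so. M8 replicate 1 had 26 of 50 above both WT arrays (40.5% of all genes), and M8 replicate 2 had 33 (40.7%). Taken by group, 20 of the 50 had both M1 arrays above both WT arrays and 1 had them below, where 22% and 13.5% of all genes did. In M8 the counts were 22 above and 4 below, where 29% and 19.1% of all genes did. The median of the 50 genes in M1 was 0.134 without M1 replicate 2 and 0.066 without M1 replicate 1. The count at an unadjusted p under 0.05 in M1 was 11 higher without M1 replicate 2, where 10.2% of all genes were higher, and 2 higher without WT replicate 2 (2.09% of all genes). In M8 the count was 11 higher and 1 lower when the M1 arrays were kept out of the estimate of the spread, where 10.2% of all genes were higher and 5.91% lower. It was 1 higher without WT replicate 2 (2.86% of all genes) and 0 without M8 replicate 2 (1.54%).

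**Figure D2:**
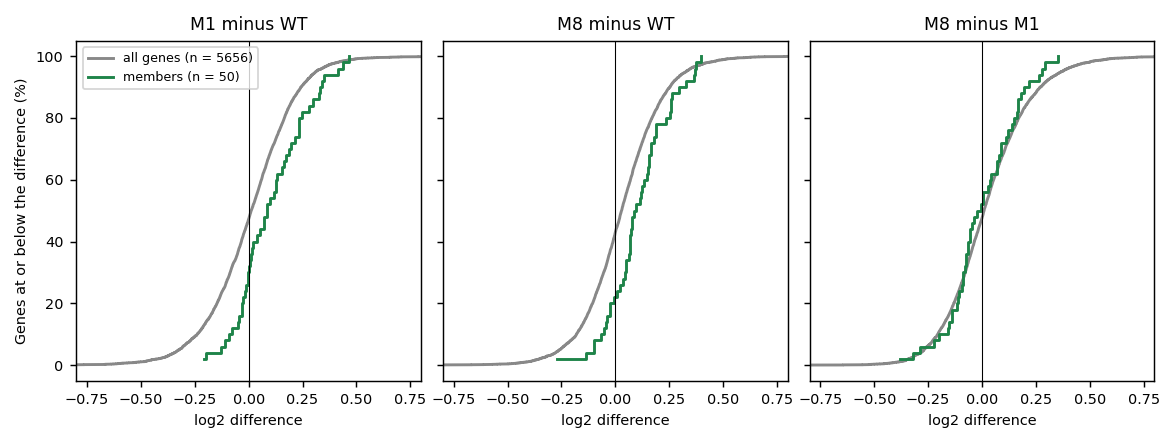
Cumulative share of genes (percent, vertical axis) at or below each log2 difference (horizontal axis) for M1 minus WT, M8 minus WT and M8 minus M1. The curve of the 50 genes (green) lies to the right of the curve of all 5656 genes (grey) over most of its length in both comparisons with WT and crosses it for M8 minus M1; a few of all genes lie outside the plotted range.

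GCN4 (YEL009C), the activator itself, had log2 levels of 12.65 and 12.59 on the WT arrays, 12.85 and 12.73 on the M1 arrays and 12.65 on both M8 arrays. Both M1 arrays lay above WT, and the M8 arrays equalled the higher WT array to 2 decimals. The difference from WT was 0.17 (SE 0.11, 95% interval -0.09 to 0.43) in M1 and 0.034 (SE 0.11, interval -0.22 to 0.29) in M8, with limma adjusted p = 0.674 and 0.977. The GCN4 message thus did not pass in either mutant, with changes of up to 0.43 inside the M1 interval, and the protein was not measured. LEU3, the zinc cluster activator of leucine genes that responds to an intermediate of the pathway, differed by -0.013 in M1 and -0.038 in M8 (SE 0.12 each).

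The arginine genes had the largest pathway median, 0.33 in M1 and 0.25 in M8 over 6 genes. In M1 6 of the 6 lay above 0 and in M8 5 did, where 52.7% and 57% of all genes did. ARG2 (YJL071W) encodes acetylglutamate synthase, the entry enzyme of ornithine synthesis. Its log2 levels were 7.16 and 6.96 in WT, 7.37 and 7.68 in M1 and 7.40 and 7.24 in M8. All 4 mutant arrays lay above both WT arrays, and the M1 duplicates were 0.31 apart. The difference was 0.46 (SE 0.15) in M1, the largest of the 50 in that mutant, and 0.26 (SE 0.15) in M8, with limma adjusted p = 0.484 and 0.803. Without M1 replicate 1, where a lone M1 array is assumed to vary like the other groups, ARG2 passed in M1 with a difference of 0.62 and limma adjusted p = 0.040, in a fit that called 382 of all genes (6.75%). Over all 15 alternatives its difference ran from 0.31 to 0.62, and it did not pass in the other 14.

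ARG7 (YMR062C), the ornithine acetyltransferase gene of the acetyl cycle, had log2 levels of 7.37 and 7.17 in WT, 7.56 and 7.67 in M1 and 7.47 and 7.32 in M8. The M1 arrays lay above WT and the M8 arrays overlapped it. The difference was 0.35 (SE 0.13) in M1 and 0.13 (SE 0.13) in M8, with limma adjusted p = 0.540 and 0.893. The genes of the last steps, ARG1 for argininosuccinate synthetase and ARG4 for argininosuccinate lyase, were alike in both mutants. ARG1 differed by 0.34 in M1 and 0.37 in M8 (SE 0.16 for each), and ARG4 by 0.33 in each (SE 0.15). For both, all 4 mutant arrays lay above both WT arrays. M1 replicate 1 was the highest array for ARG1, at 11.15 against 10.68 in M1 replicate 2, and for ARG4, at 9.03 against 8.63. ARG3, the ornithine carbamoyltransferase gene, differed by 0.073 in M1 and 0.23 in M8 (SE 0.15). ARG8, the acetylornithine aminotransferase gene, differed by 0.0065 and -0.099 (SE 0.11).

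**Figure D3:**
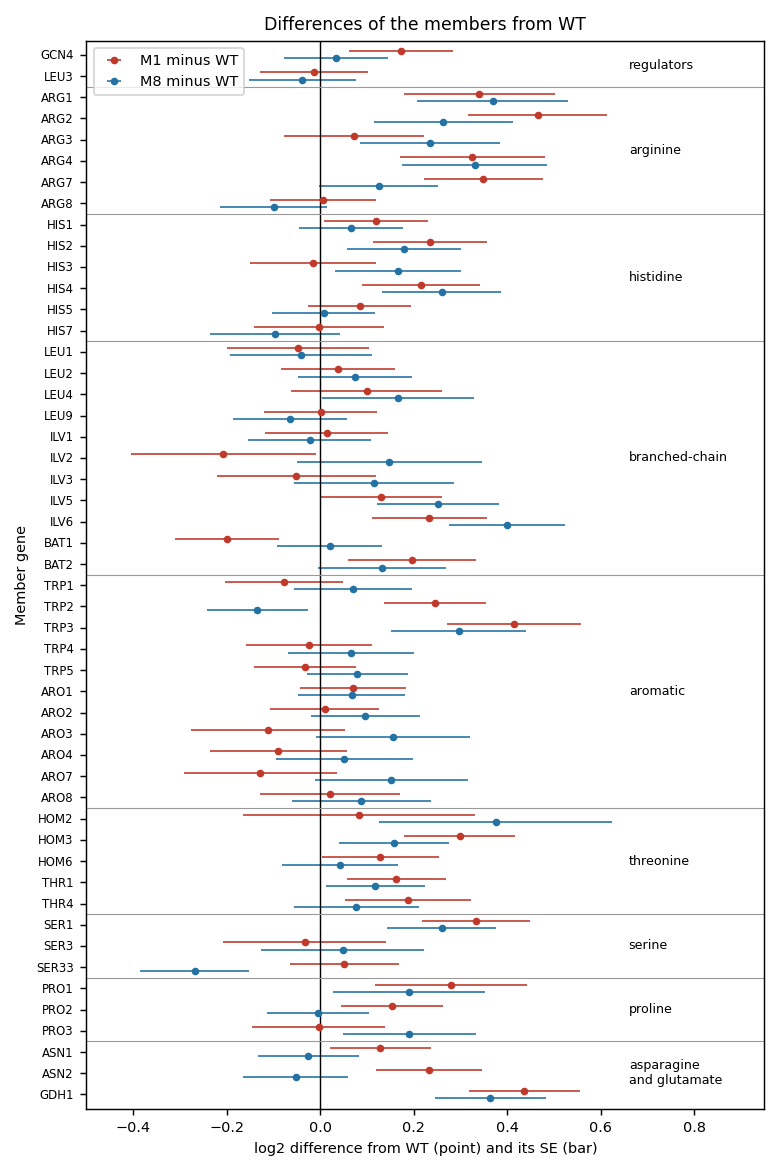
log2 difference from WT (horizontal axis) of each of the 50 genes (rows, grouped by pathway) in M1 (red) and M8 (blue), with bars of 1 SE from the limma fit. Differences run from -0.27 to 0.46, and ARG2 and GDH1 have the largest values in M1 and ILV6 in M8.

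GDH1 (YOR375C) encodes the NADP-dependent glutamate dehydrogenase that assimilates ammonium into glutamate, the amino group donor of most amino acids. It had log2 levels of 11.86 and 11.76 in WT, 12.19 and 12.30 in M1 and 12.09 and 12.26 in M8. All 4 mutant arrays lay above both WT arrays by more than the WT duplicates differed. The difference was 0.44 (SE 0.12, 95% interval 0.16 to 0.71) in M1 and 0.36 (SE 0.12, interval 0.09 to 0.64) in M8, or 1.35-fold and 1.29-fold. It had the smallest p of the 50 in M1, with limma adjusted p = 0.441, and adjusted p = 0.638 in M8. Over the alternatives the adjusted p ran from 0.054 to 0.998 in M1 and from 0.157 to 1 in M8. GDH1 was the 1 gene of the 50 below an unadjusted p of 0.05 in both mutants. Both comparisons share the WT arrays, and the share of all genes so placed was not computed.

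The asparagine synthetase genes ASN1 and ASN2, whose probe sets may each read the close copy, stood near WT in M8. ASN2 (YGR124W) had log2 levels of 10.50 and 10.46 in WT, 10.67 and 10.75 in M1 and 10.36 and 10.49 in M8. The M1 arrays lay above both other groups, and M8 overlapped WT. The difference from WT was 0.23 (SE 0.11) in M1 and -0.052 (SE 0.11) in M8. ASN1 differed by 0.13 in M1 and -0.025 in M8 (SE 0.11).

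Serine synthesis leaves glycolysis through phosphoglycerate dehydrogenase, encoded by the paralogs SER3 and SER33, and the phosphoserine aminotransferase gene SER1. SER1 (YOR184W) had log2 levels of 8.17 and 8.26 in WT, 8.61 and 8.49 in M1 and 8.42 and 8.53 in M8. All 4 mutant arrays lay above both WT arrays. The difference was 0.33 (SE 0.12) in M1 and 0.26 (SE 0.12) in M8, with limma adjusted p = 0.529 and 0.711. SER33 (YIL074C) had log2 levels of 7.84 and 7.76 in WT, 7.77 and 7.94 in M1 and 7.57 and 7.50 in M8. The M8 arrays lay below the other 4 arrays, and M1 overlapped WT. Relative to WT it stood at 0.051 in M1 and at -0.27 in M8 (SE 0.12 for each). The M8 value was the lowest of the 50 in either mutant, with limma adjusted p = 0.707. SER3 differed by -0.033 and 0.048 (SE 0.17).

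**Figure D4:**
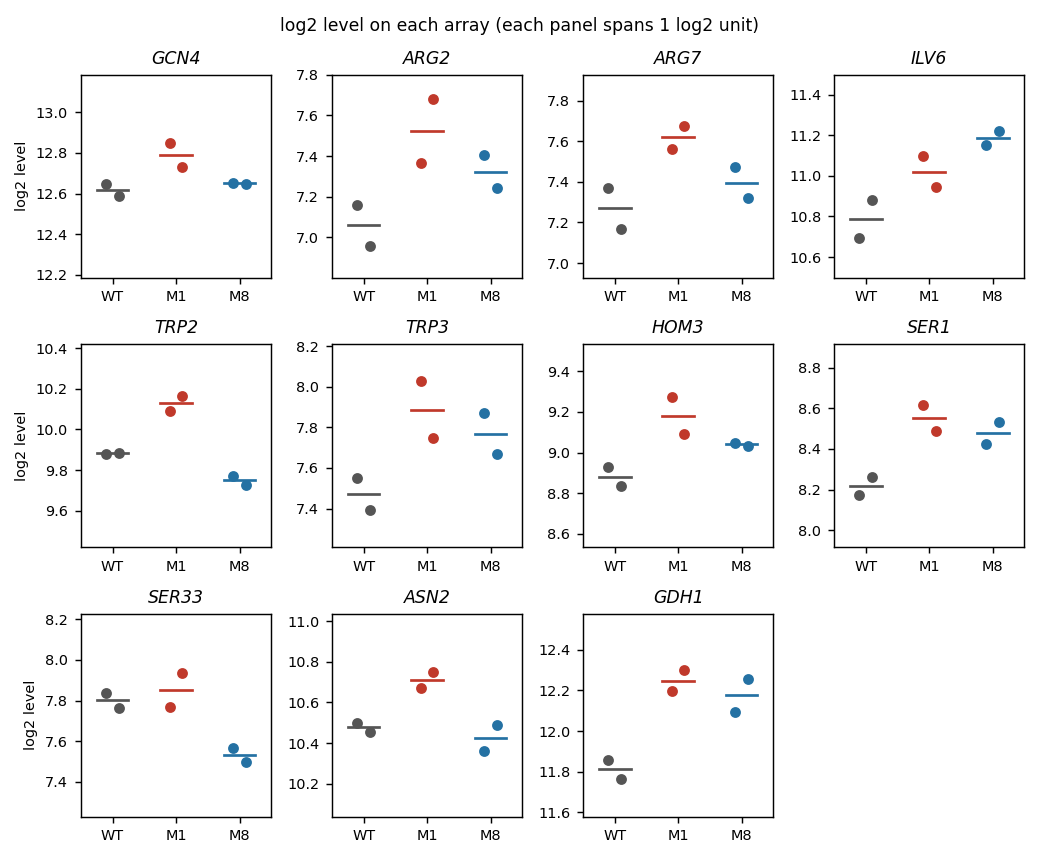
log2 level (vertical axis, 1 log2 unit in every panel) of GCN4 and the 10 other genes at an unadjusted p under 0.05 in M1 or M8 against WT or in M8 against M1. Points are single arrays and lines group means; GDH1, SER1 and TRP3 have all 4 mutant points above both WT points, and TRP2 has its M1 points above and its M8 points below WT.

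In the tryptophan branch the products of TRP2 and TRP3 form the anthranilate synthase complex, the entry step from chorismate. TRP3 (YKL211C) had log2 levels of 7.55 and 7.39 in WT, 8.03 and 7.74 in M1 and 7.87 and 7.67 in M8. Its 4 mutant arrays all lay above both WT arrays. The difference was 0.41 (SE 0.14) in M1 and 0.30 (SE 0.14) in M8, with limma adjusted p = 0.529 and 0.728. TRP2 (YER090W) had log2 levels of 9.88 and 9.89 in WT, 10.09 and 10.17 in M1 and 9.77 and 9.73 in M8. Its 3 groups did not overlap, with M1 highest and M8 lowest. The difference from WT was 0.25 (SE 0.11) in M1 and -0.13 (SE 0.11) in M8, with limma adjusted p = 0.599 and 0.871. The subunit genes thus had differences of the same sign in M1 and of opposite sign in M8.

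The later tryptophan genes stayed near WT. TRP1 for phosphoribosylanthranilate isomerase, TRP4 for anthranilate phosphoribosyltransferase and TRP5 for tryptophan synthase had M1 differences of -0.077, -0.024 and -0.033 and M8 differences of 0.070, 0.065 and 0.080. The shared trunk of aromatic synthesis was likewise within about 1 SE of WT. ARO1, the gene of a protein with several enzyme activities of the trunk, differed by 0.070 and 0.067 (SE 0.11), and ARO2, the chorismate synthase gene, by 0.010 and 0.097 (SE 0.12). ARO3 and ARO4 encode the isozymes of the entry step that are inhibited by phenylalanine and by tyrosine. ARO3 differed by -0.11 in M1 and 0.16 in M8 (SE 0.16), ARO4 by -0.089 and 0.051 (SE 0.15). ARO7, the chorismate mutase gene of the phenylalanine and tyrosine branch, differed by -0.13 and 0.15 (SE 0.16), and the aminotransferase gene ARO8 by 0.021 and 0.088 (SE 0.15). Over the 11 aromatic genes the median was -0.024 in M1 and 0.080 in M8. In M1 5 lay above 0 and in M8 10 did, where 52.7% and 57% of all genes did.

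Branched-chain synthesis had its largest difference in ILV6 (YCL009C), the regulatory subunit of acetolactate synthase. It had log2 levels of 10.69 and 10.88 in WT, 11.10 and 10.95 in M1 and 11.15 and 11.22 in M8. The M8 arrays were the highest and the M1 arrays lay between M8 and WT, with no overlap among the groups. The difference was 0.23 (SE 0.12) in M1 and 0.40 (SE 0.12, 95% interval 0.11 to 0.69) in M8, or 1.32-fold in M8, with limma adjusted p = 0.641 and 0.621. The alternatives gave an adjusted p from 0.143 to 1 in M8. ILV6 was the largest difference of the 50 in M8.

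ILV2, the catalytic subunit of the same enzyme, differed by -0.21 in M1 and 0.15 in M8 (SE 0.20 for each). The M1 value rested on replicate 2, at 8.65 against 9.27 in replicate 1 and 9.14 and 9.20 in WT. The reductoisomerase gene ILV5 differed by 0.13 in M1 and 0.25 in M8 (SE 0.13), and the dihydroxyacid dehydratase gene ILV3 by -0.051 and 0.12 (SE 0.17). ILV1, the threonine deaminase gene that feeds isoleucine synthesis, differed by 0.014 and -0.023 (SE 0.13). The mitochondrial and cytosolic branched-chain aminotransferase genes, BAT1 and BAT2, stood at -0.20 (SE 0.11) and 0.20 (SE 0.14) in M1, and at 0.020 and 0.13 in M8. BAT1 was the only one of the 50 with both M1 arrays below both WT arrays, where 13.5% of all genes were so placed.

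The leucine branch was close to WT in both mutants. LEU4 and LEU9, the paralogous isopropylmalate synthase genes, stood at 0.099 and 0.0013 relative to WT in M1, and at 0.17 and -0.065 in M8. For LEU4 the WT arrays themselves lay 0.47 apart, at 12.10 and 11.63. The isomerase gene LEU1 differed by -0.046 and -0.041 (SE 0.15). LEU2, the isopropylmalate dehydrogenase gene, differed by 0.039 and 0.074 (SE 0.12), and its 2 other probe sets by -0.11 and 0.033 in M1 against 0.11 and 0.080 in M8. LEU2, HIS3 and TRP1 are common selection markers of laboratory strains, and the labels do not give the marker genotype of these strains. Their probe sets lay at percentiles 98.7, 80.9 and 83.1, while that of the marker URA3, which is outside the 50, lay at 35.5.

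Histidine genes had medians of 0.10 in M1 and 0.12 in M8 over 6 genes. HIS4, a classical Gcn4 target whose product carries several steps of the pathway, had log2 levels of 9.23 and 9.34 in WT, 9.62 and 9.39 in M1 and 9.49 and 9.60 in M8. All 4 mutant arrays lay above both WT arrays, with M1 replicate 2 above the higher WT array by less than the WT duplicates differed. HIS4 differed by 0.22 in M1 and 0.26 in M8 (SE 0.13 for each). HIS2, the histidinol phosphatase gene, differed by 0.24 and 0.18 (SE 0.12), also with no overlap with WT. HIS1, the gene of the entry enzyme ATP phosphoribosyltransferase, differed by 0.12 and 0.066 (SE 0.11), HIS5 for the aminotransferase by 0.085 and 0.0081 (SE 0.11), and HIS7 for imidazole glycerol phosphate synthase by -0.0029 and -0.097 (SE 0.14). HIS3, the dehydratase gene, differed by -0.016 in M1 and 0.17 in M8 (SE 0.14). Its other, dimmer probe set gave 0.23 and -0.19, so the probe sets of HIS3 disagreed in sign in both mutants.

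All 5 genes from aspartate to threonine had differences above 0 in both mutants, with medians of 0.16 and 0.12. Of all genes, 52.7% in M1 and 57% in M8 had such a difference. Both M1 arrays lay above both WT arrays for 3 of the 5, where 22% of all genes did. Both M8 arrays did for 4, where 29% of all genes did. HOM3 (YER052C) encodes aspartokinase, the entry enzyme of the threonine and methionine branch. It had log2 levels of 8.93 and 8.83 in WT, 9.27 and 9.09 in M1 and 9.05 and 9.03 in M8. All 4 mutant arrays lay above both WT arrays, with M1 highest. The difference was 0.30 (SE 0.12) in M1 and 0.16 (SE 0.12) in M8, with limma adjusted p = 0.544 and 0.862.

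HOM2, the aspartate semialdehyde dehydrogenase gene, varied most of the 50 over the 6 arrays, by 0.83 on the log2 scale against a median of 0.38 for the set. It stood at 9.37 and 9.67 in WT, 10.01 and 9.19 in M1 and 9.87 and 9.92 in M8, so the M1 duplicates were the highest and the lowest of all arrays. HOM2 differed by 0.083 in M1 and 0.38 in M8 (SE 0.25 for each). The homoserine dehydrogenase gene HOM6 differed by 0.13 and 0.043 (SE 0.12), the homoserine kinase gene THR1 by 0.16 and 0.12 (SE 0.11), and the threonine synthase gene THR4 by 0.19 and 0.077 (SE 0.13). For THR1 and THR4 all 4 mutant arrays lay above both WT arrays.

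Proline synthesis starts from glutamate with PRO1, the glutamyl kinase gene, which differed by 0.28 in M1 and 0.19 in M8 (SE 0.16). PRO2 for the next reductase differed by 0.15 and -0.0041 (SE 0.11), and PRO3 for the last reductase by -0.0026 and 0.19 (SE 0.14).

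Set directly against each other, M8 and M1 showed no joint shift of the 50 genes. The median of M8 minus M1 was -0.014, against 0.0093 over all genes, with 24 of 50 above 0, against 52.4% of all genes. It turned to 0.057 without M1 replicate 1. None of the 50 passed in limma, as none of all 5656 genes did (0%). Before adjustment, 3 had p under 0.05 on the side of lower levels in M8 and 0 on the other side, where 2.32% of all genes were lower and 4.12% higher. TRP2 differed by -0.38 (SE 0.11, 95% interval -0.63 to -0.13), SER33 by -0.32 (SE 0.12, interval -0.59 to -0.05) and ASN2 by -0.29 (SE 0.11, interval -0.55 to -0.02), each with limma adjusted p = 0.721. For these 3 genes the arrays of the mutants did not overlap. Of the 50, 12 had both M8 arrays below both M1 arrays and 7 had them above, where 18.4% and 19.5% of all genes did. The count of 3 was 1 without M8 replicate 1 (0.796% of all genes), 0 without M8 replicate 2 (0.354%) and 5 without M1 replicate 1 (11.6%). Without M1 replicate 1, where 748 of all genes were called (13.2%), TRP2 passed with -0.42 and limma adjusted p = 0.044, as did HOM2 with 0.70 (adjusted p = 0.022) and ILV2 with 0.66 (adjusted p = 0.018), and the lone M1 array was then replicate 2.

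The mean of M1 and M8 was set against WT, which uses all arrays and can rest on 1 mutant alone. The median over the 50 genes was 0.075, against 0.020 over all genes, and 39 of 50 lay above 0, against 55.3%. None of the 50 passed in limma, where 4 of 5656 genes did (0.0707%). Before adjustment, 7 had p under 0.05 on the higher side and 0 on the lower, where 5.25% of all genes were higher and 2.74% lower. These were GDH1 at 0.40 (SE 0.10, adjusted p = 0.344), ILV6 at 0.32, SER1 at 0.30, TRP3 at 0.36, ARG2 at 0.36, ARG1 at 0.35 and ARG4 at 0.33. Without M1 replicate 2 ARG1 passed with 0.47 and limma adjusted p = 0.038, in a fit that called 132 of all genes (2.33%). The count of 7 was 14 without M1 replicate 2, where 12.5% of all genes were higher, and 4 without WT replicate 1 (3.94%). It was 3 without WT replicate 2 (2.51%), without M8 replicate 1 (2.55%) or without M8 replicate 2 (2.74%).

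For 13 of the 50, all 4 mutant arrays lay above both WT arrays, where 11.9% of all genes did, and for 0 they lay below, where 6.86% did. The 13 were GCN4, ARG1, ARG2, ARG4, HIS2, HIS4, ILV6, TRP3, HOM3, THR1, THR4, SER1 and GDH1. For GCN4 the margin over the higher WT array was in the third decimal.

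Genes around this set were taken from further lists, whose counts before adjustment stand beside 5.11% of all genes higher and 3.47% lower in M1, and 4.74% higher and 2.32% lower in M8. Among the 12 measured other amino acid synthesis enzymes, 1 had an unadjusted p under 0.05 in M1, on the higher side, and 0 did in M8, with medians of 0.048 and 0.12. The 1 was AAT2, the cytosolic aspartate aminotransferase gene, at 0.47 (SE 0.14) in M1 and 0.31 in M8. Among 15 other Gcn4 targets, 5 were so placed on the higher side in M1 and 4 in M8, with 0 on the lower side, with medians of 0.12 and 0.15. In M8 the vitamin B6 genes SNO1 and SNZ1 were higher by 0.57 (SE 0.14) and 0.56 (SE 0.16), and in M1 by 0.35 and 0.31. The mitochondrial carrier genes YHM2 and YMC2 were higher by 0.42 and 0.41 in M1 (SE 0.13 each), and by 0.20 and 0.18 in M8. The 15 genes of Gcn4 translational control, among them the kinase gene GCN2 and the subunits of the initiation factors it acts on, had medians of -0.020 and 0.017. Of these, 0 in M1 and 1 in M8 were at an unadjusted p under 0.05, GCD7 at 0.29 (SE 0.12). The 9 genes of Gcn4 turnover and coactivator contact had medians of 0.080 and -0.012, with 1 higher in each mutant, SSN3 in M1 (0.29) and SSN8 in M8 (0.28). These encode a kinase of the Mediator complex and its cyclin. None of the genes of these lists passed over all genes in M1 or M8 by limma.

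The excluded lysine and sulfur pathways and the heat shock chaperones had other medians, and none of their genes passed over all genes in M1 or M8 by limma. The 9 lysine genes had medians of 0.34 in M1 and 0.44 in M8, and in each mutant 7 were higher before adjustment (p under 0.05) and 0 were lower, beside the same shares of all genes. The 18 sulfur amino acid genes, which share HOM3 with the 50, had medians of -0.18 and -0.081, with 3 higher and 2 lower in M1 and 1 of each in M8. The 20 heat shock chaperone genes had medians of 0.41 and 0.38, with 13 and 11 higher and 0 lower. Whether these lists differed from the 50 genes was not tested.

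**Figure D5:**
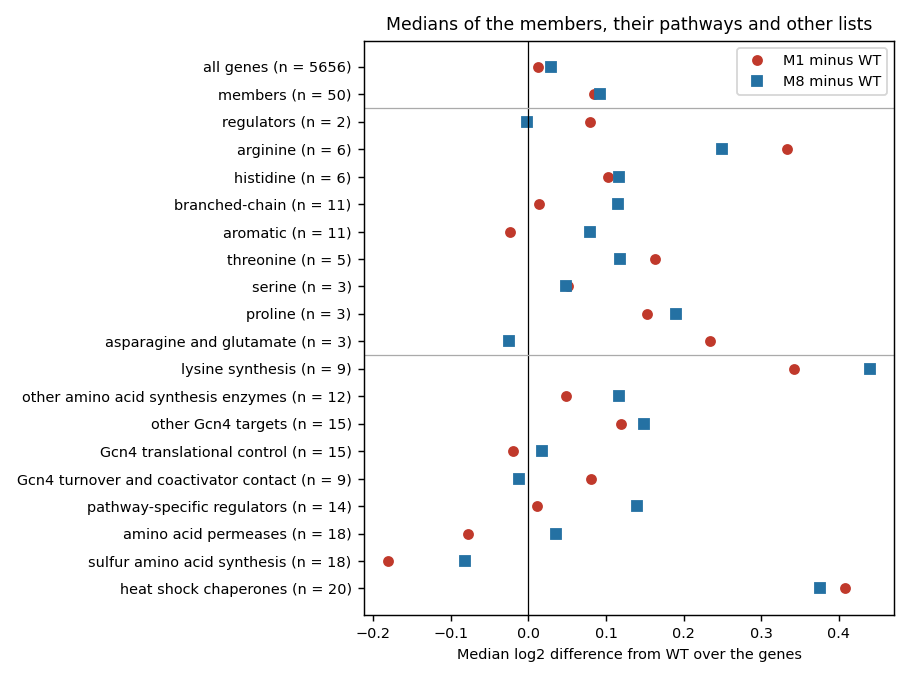
Median log2 difference from WT (horizontal axis) in M1 (red circles) and M8 (blue squares) over all genes, the 50 genes, their pathways and other lists, with the number of genes measured in each. Among the pathways of the 50, arginine has the largest medians (0.33 and 0.25), and the lysine and heat shock lists lie at 0.34 to 0.44.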

How the data were processed

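The authors deposited a log2 level for each probe set. Per the submitters' processing notes, RMA and oligo were used; versions and settings are not stated. Array medians of 6.48 to 6.52 show prior scaling, which hides any change common to all messages. Of 9275 probe sets 6504 had 1 gene in the platform table, 328 had several and 2443 none. All 6504 matched the R64 gene table by gene identifier. The brightest probe set per gene left 5656 genes.

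Group means of all 6 arrays were fitted with limma 3.58.1 in R 4.3.3 and eBayes, with 3 residual degrees of freedom, two-sided p-values and Benjamini-Hochberg adjustment over the 5656 genes. The script was tested on simulated arrays, in which the changes put in were all larger than any difference of the 50 from all 6 arrays. That test cannot tell how often differences of their size would pass. The 50 genes and the 14 other lists were chosen with earlier results of these data known. Array values are given for GCN4 and for genes at an unadjusted p under 0.05 in M1 or M8 against WT or in M8 against M1. HIS4, ILV2, LEU4, HOM2, ARG1 and ARG4 are exceptions, chosen after their values were seen, as was URA3, of which only a percentile is given. Of the other lists at most 2 genes with the smallest p in a comparison are named. The MATa-specific and MATalpha-specific lists, of which every gene is named, and GCN2 are exceptions. ARG5,6 was not matched in the table, and another listed gene is not reported here. Promoter and protein sequences were not used here, so a planned search for the Gcn4 motif was not run. The number of arrays limits the precision.

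Replicate numbers were not taken to pair the arrays. The correlations of deviations from the group means were -0.31 for WT and M1, 0.30 for WT and M8 and -0.11 for M1 and M8. They were not tested and cannot decide whether arrays shared a batch, since each group gives a single duplicate difference per gene. Alternatives left out each array, added a replicate block, changed scaling, probe set choice, dim filter, groups fitted and estimate of the spread, or used an ordinary linear model.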

Additional observations from a re-analysis of the deposited data

Results flagged for a closer look

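TRP2, the gene of an anthranilate synthase subunit, had both M1 arrays above and both M8 arrays below both WT arrays. Of all 5656 genes 136 had their mutant arrays on opposite sides of WT, and TRP2 was the 1 among the 50. The 50 genes thus held no larger share of such genes than all genes did. For TRP2 this placing rested on WT arrays that lay close together, at 9.88 and 9.89. Its M8 minus WT difference was -0.13 (SE 0.11), with limma adjusted p = 0.871, so the lower level in M8 than in WT did not pass. The difference between the mutants, M8 minus M1, was -0.38 (SE 0.11), with limma adjusted p = 0.721 over all genes, and it lay between -0.42 and -0.34 when any 1 array was left out. It did not pass in 14 of the 15 alternatives, the exception being the fit without M1 replicate 1, which leaves 1 M1 array. No group holds more than 2 arrays, so single arrays far from their group could not be tested.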

How the results depend on the processing

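With any 1 array left out, the number of all genes called ran from 0 to 382 for M1 minus WT, 0 to 23 for M8 minus WT, 0 to 748 for M8 minus M1 and 0 to 132 for the mean of both mutants (4 with all arrays). The number of the 50 called then ran from 0 to 1 for M1, 0 to 3 for M8 minus M1 and 0 to 1 for the mean, and stayed at 0 for M8. It was 0 under each other alternative. Their median for M8 minus M1 ran from -0.063 to 0.057, and for M1 from 0.066 to 0.134. In M1, 3 genes were called under median centring, 3 with the mean of a gene's probe sets and 3 with an intensity trend and robust settings. In M8, 23 were called when only the compared groups were fitted, which drops the M1 arrays from the spread. For the mean, 0 were called under quantile normalization, 0 with all single-gene probe sets and 0 by the ordinary linear model. The replicate block, which does not rest on a known pairing, gave 0 genes for the mean and changed no other call. The cause of these moves was not tested. At an unadjusted p under 0.05, counts of the 50 higher in M1 ran from 4 to 10 over the settings other than leaving out an array, these counts being added after the data were seen. Differences at an unadjusted p under 0.05 and those of GCN4 kept their sign in each alternative run. For most of them the arrays of the compared groups did not overlap, so leaving out an array could not have changed the sign. Whichever array was left out, 26 of the 50 kept their sign in M1 (25 above WT) and 35 in M8 (30 above WT). The share of all genes that did so was not computed, so these counts have no background beside them. Genes with both mutant arrays above both WT arrays keep their sign in any case, and these were 22% of all genes in M1 and 29% in M8.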

Other observations

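Regulators and transporters of amino acid metabolism outside the 50 genes held some of the larger differences. BAS1, an activator of purine and histidine genes, stood 0.51 above WT in M1 and 0.44 above it in M8 (SE 0.14). STP2, which activates permease genes when amino acids are sensed outside the cell, differed by -0.53 and -0.34 (SE 0.13). Their limma adjusted p was 0.441 and 0.390 in M1 and 0.638 and 0.671 in M8, so neither passed. Their list of 14 pathway-specific regulators had medians of 0.011 in M1 and 0.14 in M8. ARG80, a regulator of arginine genes, was higher in M8 than in M1 by 0.65 (SE 0.18), with limma adjusted p = 0.721. Relative to WT it stood at -0.24 in M1 and 0.41 in M8, and M1 replicate 2 was its lowest array.

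The 18 amino acid permease genes had medians of -0.078 in M1 and 0.036 in M8, and before adjustment 1 had p under 0.05 in M1, on the lower side, against 3 in M8, 2 of them on the higher side, where 3.47% of all genes were lower in M1 and 4.74% higher and 2.32% lower in M8. MUP3, a methionine permease gene, differed by -0.45 in M1 and -0.33 in M8 (SE 0.13). LYP1, the lysine permease gene, differed by 0.29 in M1 and 0.36 in M8 (SE 0.13). DIP5, the permease gene for glutamate and aspartate, differed by 0.026 in M1 and 0.64 in M8 (SE 0.25).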
